A study of Mus musculus with 8 samples.

Results

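The clustered histone genes are the genes whose array symbols begin with Hist1h, Hist2h, Hist3h or Hist4h. The annotation of the newer array files gives such a symbol to 46 probes of 37 genes, out of 41174 probes on the array. Of these, 33 genes had a probe well above background on each of the 2 arrays of some group, out of 13866 genes tested, and the brightest such probe stood for each gene. They were 6 H1, 10 H2A, 8 H2B, 3 H3 and 6 H4 genes. Hist1h2ac and Hist1h2al were well above background on 2 arrays each, Hist1h2be and Hist3h2ba on none, and these 4 genes were left out. They were judged by the probes under their own symbols. The probe under Hist3h2bb-ps, which was measured, is listed under RefSeq transcripts of Hist3h2ba (now H2bu2).

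RNA came from Ba/F3, a mouse line of pro-B cells grown with IL3, carrying either FLT3/ITD (FLT3 with an internal tandem duplication) or wild type FLT3. The kinase FLT3 is a growth factor receptor of blood progenitors, and the duplication makes it active in the absence of its ligand. After washing, the cells spent 4 h in medium with albumin, either with 100 ng/ml of the chemokine Cxcl12, which binds Cxcr4, or without it, which gave 4 groups of 2 arrays: FLT3/ITD with Cxcl12, FLT3/ITD without, wild type FLT3 with Cxcl12 and wild type FLT3 without. Set 1 and set 2 are the array slides, and each held 1 array of every group. The FLT3/ITD arrays carry the label N51 in set 1 and N78 in set 2, so ITD type and set cannot be told apart, nor can group and position on the slide, which was the same on both. The labels do not say whether arrays of a group came from separate cultures, so p-values measure the spread between these arrays, which may be technical. How the FLT3 genes were introduced, and whether a line was 1 clone, is not given in the sources used here.

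Histones H2A, H2B, H3 and H4 form the core around which DNA is wound, and H1 binds the linker DNA. The clustered genes are transcribed in S phase with the help of the co-activator NPAT, and their mRNAs end in a stem-loop, bound by SLBP, in place of a poly(A) tail. Some of them also give longer, polyadenylated transcripts that read past the stem-loop, in cells that leave the cycle or differentiate. The labels name 1 labelling kit for all 8 arrays, a kit that starts from poly(A) tails, and the labelling of the sets was not checked otherwise here.

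Per array, 49.2% to 55.0% of probes exceeded the background limit, and the 75th percentile of intensity was 367 to 601 in set 2 and 944.5 to 1124 in set 1. Of 13 pro-B and Ba/F3 markers, 8 were measured, among them Ptprc, Cd79b and the IL3 receptor chains Csf2rb and Csf2rb2, while 5 were well above background on no array. Of the 8 measured, 2 fell with FLT3/ITD, averaged over arrays with and without Cxcl12 (adjusted p under 0.05, limma). Mast cell and basophil markers were also present, all 8 of 8 measured, and 3 of these fell with FLT3/ITD. Measured too were 4 of 7 neutrophil, 4 of 6 monocyte and macrophage, 4 of 6 T and NK cell and 3 of 6 erythroid markers. Of these, 1 neutrophil marker fell and 1 monocyte and macrophage marker rose with FLT3/ITD. At the same threshold, 355 of all 13866 genes fell and 499 rose. The part of such marker changes in any difference below was not tested.

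Many of these probes read several histone genes at once. The probes of 12 of the 33 genes are listed in the files under RefSeq transcripts of more than 1 gene, and the probes of 11 genes share a run of at least 20 bases with the probe of another. For 16 genes neither was found. The transcript listings stop after a few entries, and probes were not aligned to all histone genes, so sharing may be wider. No RefSeq transcript is listed for the probes of Hist1h2bp and Hist1h4i, which are among the 16. The probe pairs below are shown because their members cannot be read as separate genes. They are the 60-base probes as the newer files give them, 5′ to 3′, with the run shared by the pair in capitals (50 bases in H4, 52 in H2B and 44 in H2A). All lie on mouse chromosome 13 (mm9), at chr13:23673665-23673724 on the + strand (Hist1h4d), chr13:23643249-23643308 on the - strand (Hist1h4f), chr13:22127928-22127987 on the + strand (Hist1h2bk), chr13:21814139-21814198 on the + strand (Hist1h2bm), chr13:23626108-23626167 on the + strand (Hist1h2af) and chr13:24026659-24026718 on the + strand (Hist1h2aa).
Hist1h4d: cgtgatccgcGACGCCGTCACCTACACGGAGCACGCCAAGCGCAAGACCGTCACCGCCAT
Hist1h4f: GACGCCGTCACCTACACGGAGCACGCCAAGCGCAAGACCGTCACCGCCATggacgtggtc
Hist1h2bk: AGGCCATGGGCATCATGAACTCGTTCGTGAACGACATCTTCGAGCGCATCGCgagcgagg
Hist1h2bm: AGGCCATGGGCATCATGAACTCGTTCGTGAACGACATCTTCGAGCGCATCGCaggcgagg
Hist1h2af: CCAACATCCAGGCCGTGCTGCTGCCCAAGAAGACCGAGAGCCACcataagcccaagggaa
Hist1h2aa: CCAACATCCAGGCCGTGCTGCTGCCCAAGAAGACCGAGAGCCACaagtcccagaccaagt

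The Hist1h4d probe is listed under 4 H4 genes (H4c1, H4c2, H4c4 and H4c6) and the Hist1h4f probe also under 4 (H4c1, H4c2, H4c3 and H4c6). The Hist1h2bk probe is listed under H2bc11, H2bc12, H2bc13 and H2bc15, and the Hist1h2bm probe under H2bc4, H2bc8, H2bc9 and H2bc14. Hist1h2aa is known as a testis gene, and its probe shares runs with those of Hist1h2af and Hist1h2ao (44 and 26 bases), so its signal cannot be ascribed to that gene.

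The place of a probe along the gene was a second property the symbols do not show. A probe was called inside where its last base, counted along its annotated transcript, lay within the length of the RefSeq gene model (GRCm38). The model also had to be at most 1000 bases long, as is usual for a stem-loop mRNA. Some probes were annotated to transcripts outside RefSeq, whose starts were not compared with the model. Of the 40 histone probes that passed the background filter, 30 lay inside and 10 lay either beyond the end of the short model or in a model longer than 1000 bases. This division was made after the values had been seen. The 10 outside probes represent Hist1h1c, Hist1h2ae, Hist1h2bc, Hist1h2bp, Hist1h2bq, Hist1h4i and Hist2h2be, and are further probes of Hist1h1d, Hist2h2aa1 and Hist3h2a. Of the 46, 3 probes reach the stem-loop, and 30 bases of each are shown to place it, with the stem-loop or the part of it within the probe in capitals. They lie at chr13:23853756-23853785 on the - strand (Hist1h3a), chr13:23843422-23843451 on the + strand (Hist1h2ab) and chr13:23662519-23662548 on the - strand (Hist1h2ae).
Hist1h3a: aattaaccaaaGGCTCTTTTCAGAGCCaca
Hist1h2ab: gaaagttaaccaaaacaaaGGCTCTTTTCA
Hist1h2ae: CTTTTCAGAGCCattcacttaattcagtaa

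The Hist1h3a probe holds the whole stem-loop, the Hist1h2ab probe ends just past the loop and the Hist1h2ae probe begins just before it and runs on downstream. TTTC between the arms of a 6-base inverted repeat was found in 1 of 46 histone probes and in 4 of all 41174 (0.00971%), with probes read on their own strand. The 7 letters CTTTTCA were found in 3 of 46 and in 355 of all probes (0.862%).

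The widest spread among the histone probes was between the array sets, and it was found on every group. Levels here are log2 intensities relative to the array's 75th percentile, and they are compared between arrays, never between probes. Hist2h4, an H4 gene of chromosome 3, had 7.14 and 2.62 in set 2 and set 1 in FLT3/ITD cells with Cxcl12, and 7.11 and 2.30 in FLT3/ITD cells without. In wild type FLT3 cells it had 7.33 and 1.96 with Cxcl12, and 6.78 and 2.33 without. All 4 set 2 arrays therefore lay far above all 4 set 1 arrays, on average by 4.79.

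Each of the 6 inside H4 probes was higher in set 2, by 4.35 to 5.12. The inside H2B probes (5) were higher by 2.40 to 3.48, the inside H1 probes (5) by 1.74 to 3.89, the inside H2A probes (11) by 0.89 to 6.32 and the inside H3 probes (3) by 0.30 to 1.88. The 3.89 is that of Hist1h1t, above the background limit in set 1 only in FLT3/ITD cells with Cxcl12, so its size is uncertain. The next H1 probe was that of Hist1h1e, at 3.14. Hist1h2ab, whose probe ends in the stem-loop, had the highest difference of all inside probes. It had 6.39, 6.45, 6.54 and 6.21 in set 2 (FLT3/ITD with and without Cxcl12, then wild type FLT3 with and without), and 0.42, 0.06, -0.36 and 0.16 on the same groups in set 1. Hist1h2ae, whose probe starts in the stem-loop and lies mostly downstream, went the other way, at -0.67 on average.

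Over the 30 inside probes the median difference of set 2 over set 1 was 2.45, and in 29 of them every set 2 array lay above every set 1 array. Over the 10 outside probes the median was 0.39, and such a separation was found in 2. By gene, it was found in 27 of the 33 members (81.8%), against 24.8% of all genes. The median over all 13866 genes was 0.02, with 19.9% of genes above 1, against 66.7% of the 33 histone genes. Of the 33, 6 (18.2%) were higher by more than 4, against 0.411% of all genes. The inside probes were also richer in G and C (median 58.3%, range 40 to 75%) than the outside probes (median 35.0%, range 35.0 to 45.0%). The 250 genes of the array whose probe held at least 58.3% G and C had a median set difference of 1.26. Of these, 67.6% were above 1 and 6.40% above 4. The 66.7% of histone genes above 1 includes genes read by outside probes, and of the 30 inside probes 24 were above 1. The Hist1h2ab probe had 40% G and C. The set difference was also found in wild type FLT3 cells, whose arrays carry no ITD type: the median over the inside probes was 2.35 with and 2.33 without Cxcl12 in FLT3/ITD cells, and 3.05 with and 2.13 without in wild type FLT3 cells. The parts of base composition, labelling, slide and scanner software version were not tested, and slide and software version cannot be told apart. The set is a term of every fit below, so differences between groups are taken within a set.

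**Figure D1:**
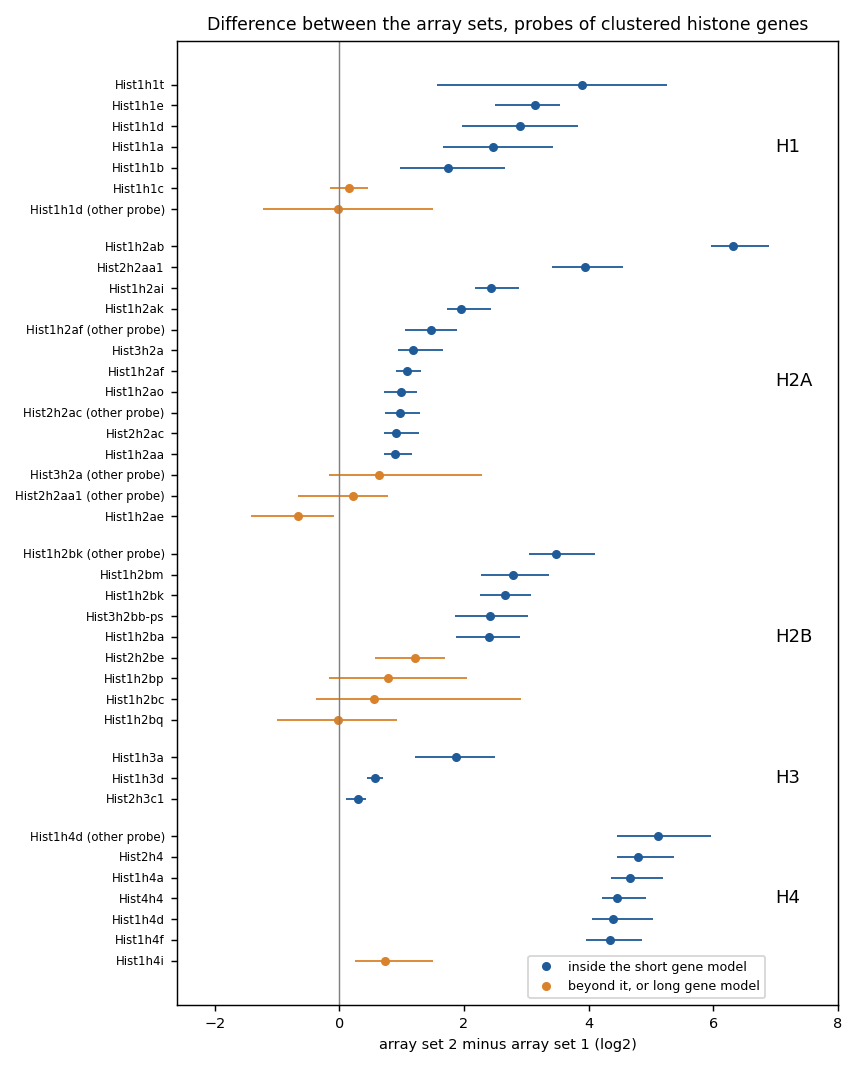
Each row is 1 of the 40 probes of clustered histone genes that passed the background filter, grouped by histone class. The point is the mean difference of set 2 over set 1 (log2) and the line runs over the 4 groups. The inside H4 probes lie between 4.35 and 5.12, and the 10 outside probes between -0.67 and 1.22.

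With FLT3/ITD, no clustered histone gene passed the test, and most differences were small and positive. The average difference of FLT3/ITD over wild type FLT3 cells (4 arrays against 4) was positive in 25 of 33 genes, with a median of 0.19, against -0.01 over all genes. By set the median was 0.20 in set 1 and 0.05 in set 2. It fell to 0.04 (20 positive) without the set 1 wild type array with Cxcl12, to 0.09 without the N51 array with Cxcl12 and to 0.10 without the set 2 wild type array without Cxcl12, and was 0.08 with normexp background correction and 0.10 with quantile scaling. At an adjusted p under 0.05 (limma, Benjamini-Hochberg over all genes), 0 of 33 passed, where 854 of 13866 genes (6.16%) did. At an unadjusted p under 0.05 there were 4 of 33 (12.1%), against 3627 of all genes (26.2%). Under 2 of the alternatives 1 member passed, Hist2h2aa1 with the array median as scale (where 9.57% of genes passed) and Hist1h2bc without the N51 array without Cxcl12 (6.89%). The 95% interval lay within 1 log2 unit of 0, or a 2-fold difference either way, for 27 of 33. A difference in mRNA per cell and a difference in the share of cells in S phase cannot be told apart in such bulk RNA.

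All 10 measured H2A genes were positive (0.04 to 0.61, median 0.23), also under each of the other 4 scalings, but 8 without the N51 array without Cxcl12 and 7 (median 0.15) without the set 1 wild type array with Cxcl12. The median was 0.11 without the N51 array with Cxcl12, and 0.36 without that of N78 or with the array median as scale. By set, all 10 were positive in set 1. In set 2, Hist1h2ao (-0.12), Hist1h2af (-0.08), Hist2h2ac (-0.04) and Hist1h2aa (-0.04) were negative and the other H2A genes positive. Hist1h2ai, an H2A gene whose probe is listed under 4 genes, had 3.07 and 5.41 in FLT3/ITD cells with Cxcl12 and 3.26 and 5.44 without it (set 1, set 2). In wild type FLT3 cells it had 2.52 and 5.40 with and 2.52 and 4.82 without Cxcl12. The FLT3/ITD arrays were the higher ones within each set, though in set 2 the FLT3/ITD arrays and the wild type array with Cxcl12 nearly met. Its average difference was 0.48 (95% interval 0.12 to 0.84, adjusted p = 0.100), and it was the 1 member of 33 whose FLT3/ITD arrays all lay above the wild type arrays within each set, a pattern found in 9.72% of all genes. None lay below in both sets (9.76% of all genes). Hist2h2aa1, an H2A gene of chromosome 3 that shares its probe with a duplicate copy, had 0.09 and 3.51 in FLT3/ITD cells with Cxcl12 and -0.43 and 3.41 without, against -1.07 and 3.48 in wild type FLT3 cells with Cxcl12 and -1.12 and 2.85 without. The FLT3/ITD array was the higher one in all 4 pairs, though with Cxcl12 in set 2 the pair nearly met. The average was 0.61 (0.16 to 1.06, adjusted p = 0.0971), the lowest adjusted p of the 33. A second probe of the gene, outside the short model, was well above background on 3 of 4 wild type arrays and on 0 of 4 FLT3/ITD arrays, so it passed the filter through wild type FLT3 with Cxcl12, and no size is given for it. Hist3h2a, an H2A gene of chromosome 11, averaged 0.42 (0.08 to 0.75, adjusted p = 0.118), and Hist1h2ak, chosen after its values were seen, 0.43 (0.09 to 0.78, adjusted p = 0.119). The Hist1h2ak probe shares a run of 26 bases with that of Hist1h2ai and differs from it at 5 of 60 bases. The probes of Hist1h2aa, Hist1h2af and Hist1h2ao share runs of 26 to 44 bases. The 10 H2A genes are therefore not 10 separate readings. Hist1h2aa had 0.10 (-0.15 to 0.34).

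Among H1 genes, Hist1h1d, a linker histone gene, had -0.80 and 2.25 in FLT3/ITD cells with Cxcl12 and 0.30 and 2.27 without, against -1.67 and 2.15 in wild type FLT3 cells with Cxcl12 and -0.65 and 2.11 without. The difference was found in set 1 (0.91) and hardly in set 2 (0.13), and averaged 0.52 (-0.08 to 1.12, adjusted p = 0.249). Hist1h1t, a testis H1 gene, averaged 0.72 (-0.51 to 1.94, adjusted p = 0.439) but was well above background on 5 arrays, the 4 of set 2 and that of FLT3/ITD with Cxcl12 in set 1, and passed the filter only through that group. Hist1h1b, the brightest H1 probe, had -0.07 (-0.69 to 0.56, adjusted p = 0.908).

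H2B genes lay on both sides of 0, with 3 of 8 positive and a median of -0.01, but their direction moved with the setting. All 8 were positive with the array median as scale (0.12, as was the median of all genes), with the authors' deposited tables (0.11) and without the set 1 wild type array without Cxcl12 (0.15), while 1 of 8 was positive without the N78 array without Cxcl12 (-0.12). Hist1h2bq had 0.84 (-0.04 to 1.72, adjusted p = 0.206), with -0.09 in set 1 and 1.77 in set 2. It passed the filter through the FLT3/ITD groups and was below the background limit on both wild type arrays of set 2, so the size of its difference is uncertain. Hist1h2bm (-0.05), Hist3h2bb-ps, a gene annotated as a pseudogene (-0.04), and Hist1h2ba, a testis H2B gene (-0.03), were among the 5 lowest, with Hist1h1b and the H4 gene Hist1h4i (-0.03, -0.54 to 0.48). The Hist3h2bb-ps probe is listed under transcripts of Hist3h2ba, so its signal cannot be ascribed to the pseudogene. The 3 H3 genes were positive, led in brightness by Hist2h3c1, at 0.22 (-0.05 to 0.50, adjusted p = 0.270). Of 6 H4 genes, 5 were positive (highest 0.21, median 0.17, but 0.02 without the set 1 wild type array with Cxcl12), and Hist1h4f, the brightest, had 0.15 (-0.21 to 0.51, adjusted p = 0.585).

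**Figure D2:**
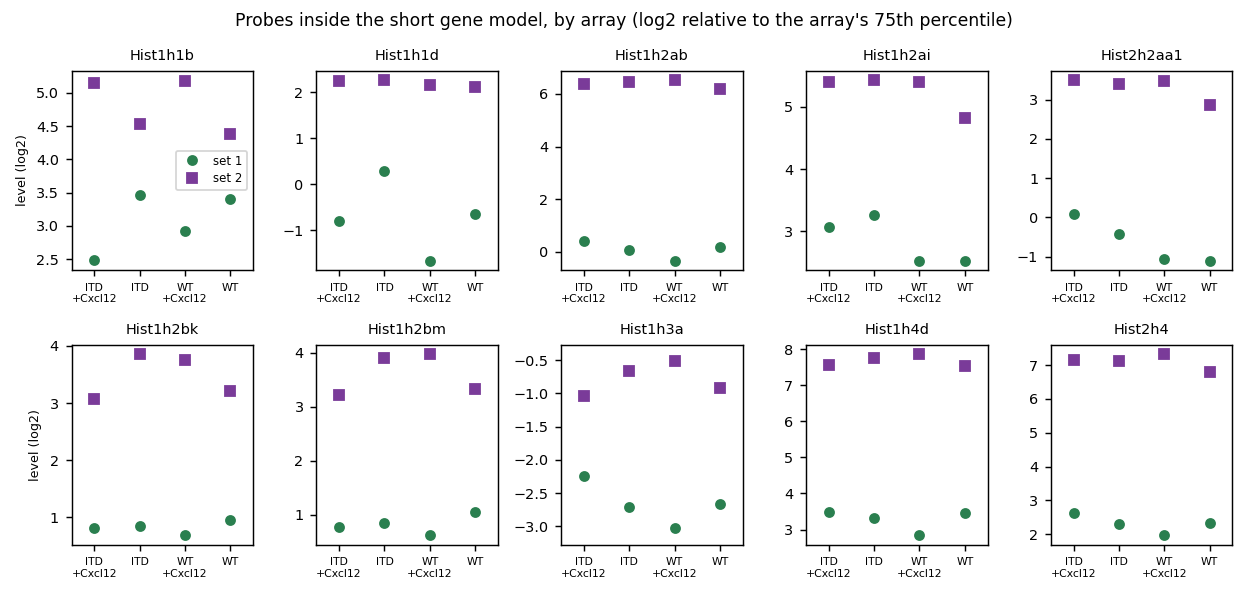
Levels of 10 probes inside the short gene model on each array (log2 relative to the array's 75th percentile), circles for set 1 and squares for set 2. From left to right each panel gives FLT3/ITD with Cxcl12, FLT3/ITD, wild type FLT3 with Cxcl12 and wild type FLT3. The sets lie apart in most panels, by 6.32 for Hist1h2ab. The groups of a set mostly lie closer together than the sets, but in set 1 they run from -1.67 to 0.30 for Hist1h1d.

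Split by medium, 0 of 33 passed without Cxcl12 (limma), where 72 of all genes (0.519%) did, and 5 had an unadjusted p under 0.05 (1697 of all genes, 12.2%). Without Cxcl12, 31 of 33 differences of FLT3/ITD over wild type FLT3 were positive, with a median of 0.20 against -0.05 over all genes. By set, 16 members (48.5%) were positive in both sets and 1 (3.03%) negative in both, against 23.6% and 35.2% of all genes. Leaving out 1 array gave 24 to 31 positive members, with medians of 0.13 (without the set 2 wild type array without Cxcl12) to 0.47 (without that of set 1). The lowest unadjusted p was that of Hist1h2ai (0.68, 0.18 to 1.19, adjusted p = 0.293). With Cxcl12, again 0 of 33 passed, where 118 of all genes (0.851%) did, and 1 had an unadjusted p under 0.05 (2525 of all genes). Hist1h1t passed without the N78 array with Cxcl12 (where 1.34% of genes passed), a call that sets 1 FLT3/ITD array above background (-4.39) against a set 1 wild type array below it (-7.47) and so gives no measured size. The median with Cxcl12 was 0.11 against 0.05 over all genes, but 0.29 in set 1 and -0.09 in set 2, and 26 of 33 differences were positive. These became 11 of 33, with a median of -0.11, without the set 1 wild type array, and 17 of 33, with a median of 0.00, without the N51 array.

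With Cxcl12, no member passed either, and the genes with larger differences were nearly all lower and read by outside probes. Averaged over both kinds of cell, 0 of 33 passed (limma), where 53 of all genes (0.382%) did, and 3 had an unadjusted p under 0.05 (2089 of all genes, 15.1%). The median was -0.05 against 0.02 over all genes, with 14 genes positive and 19 negative. Leaving out 1 array gave 3 positive (median -0.16, without the set 2 wild type array with Cxcl12) to 22 positive (0.09, without that of set 1). The interval lay within 1 log2 unit of 0 for 26 of 33. The 5 lowest members were Hist1h2bp, Hist1h2bc, Hist1h1c, Hist2h2be and Hist1h2bq, and the probe of each is outside the short model.

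Hist1h1c encodes a linker histone known to give polyadenylated mRNA in differentiating cells. It had 1.11 and 1.21 in FLT3/ITD cells with Cxcl12, against 2.16 and 2.62 without (set 1, set 2). Wild type FLT3 cells had 1.77 and 1.63 with Cxcl12, against 1.76 and 1.98 without. The FLT3/ITD arrays with Cxcl12 were the lowest of the 8 and those without it the highest, while the wild type arrays lay between and close together. The average Cxcl12 difference was -0.70 (-1.06 to -0.34, adjusted p = 0.0970). In FLT3/ITD cells it was -1.23 (-1.74 to -0.71, unadjusted p = 0.000426, adjusted p = 0.270 in limma), the lowest unadjusted p of any member in any comparison. The difference between the responses of FLT3/ITD and wild type cells was -1.05 (-1.78 to -0.33, unadjusted p = 0.00946, adjusted p = 1), with -1.06 in set 1 and -1.05 in set 2.

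Hist2h2be, an H2B gene also known to give polyadenylated mRNA, had 0.55 and 2.06 in FLT3/ITD cells with Cxcl12, against 1.32 and 3.02 without. In wild type FLT3 cells it had 1.28 and 1.86 with Cxcl12, against 1.39 and 2.48 without. Both arrays with Cxcl12 lay below both arrays without it within each set. The average was -0.62 (-1.08 to -0.16, adjusted p = 0.200), and -0.86 (-1.51 to -0.22, adjusted p = 0.368) in FLT3/ITD cells.

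Hist1h2bp, an H2B gene, had -4.69 and -4.12 in FLT3/ITD cells with Cxcl12, against -4.18 and -2.13 without. Its wild type levels were -4.34 and -4.50 with Cxcl12, against -4.13 and -3.49 without, and it was below the background limit on the set 2 wild type array with Cxcl12. Its arrays with Cxcl12 lay below those without within each set, as for Hist2h2be, which made 2 of 33 members (6.06%) against 4.80% of all genes, and the average was -0.93 (-1.73 to -0.13, adjusted p = 0.263). Hist1h2bc, an H2B gene with a long RefSeq model, had -0.16 and -0.54 in FLT3/ITD cells with Cxcl12, against -0.64 and 2.28 without. In wild type FLT3 cells it had -0.21 and -0.59 with Cxcl12, against -0.04 and 0.05 without. The N78 array without Cxcl12 stood high, and the average of -0.78 (-1.87 to 0.31, adjusted p = 0.499) was 0.00 without that array. Hist1h2bq had -0.58 (-1.45 to 0.30, adjusted p = 0.540).

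The same array was high at the outside probe of Hist3h2a, which had -0.91 and -0.89 in FLT3/ITD cells with Cxcl12, against 0.29 and 2.58 without. The probe was in wild type FLT3 cells also higher without Cxcl12 in both sets, as the plot of the outside probes shows. Its average difference was -1.46 (-2.27 to -0.66, adjusted p = 0.115 over all probes), and -2.33 in FLT3/ITD cells (-3.47 to -1.19, adjusted p = 0.300). The inside probe of the same gene differed by 0.10 (-0.23 to 0.44), so the probes disagree. The outside probe of Hist1h1d had -0.70 (-1.62 to 0.22) and its inside probe -0.53 (-1.13 to 0.07, adjusted p = 0.399). Hist1h2ae had an average of -0.32 and Hist1h4i of 0.01. The outside probe of Hist2h2aa1 was below the background limit on all FLT3/ITD arrays and passed the filter only through wild type FLT3 with Cxcl12. No size is given for it here either.

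Over the 10 outside probes the median average Cxcl12 difference was -0.66, with 8 negative, against 0.00 over the 30 inside probes (15 negative) and 0.01 over all 21120 kept probes. No p is given, since the division was made after the values were seen. The outside medians and counts include the Hist2h2aa1 probe, positive here, which passed the filter only through wild type FLT3 with Cxcl12. In FLT3/ITD cells the medians were -0.84 outside and -0.05 inside. Outside they ran from -0.36 without the N78 array without Cxcl12 to -1.31 without that of N51, and inside from -0.17 without the N51 array with Cxcl12 to 0.06 without the N51 array without Cxcl12. In wild type FLT3 cells the medians were -0.39 outside and 0.04 inside, but the direction outside rested on set 2, at -0.63 against -0.05 in set 1. On the set 2 wild type array with Cxcl12, the outside probes of Hist1h1d, Hist1h2bp and Hist1h2bq were below the background limit. Those of Hist1h2bq and Hist2h2aa1 were below it on the set 2 wild type array without Cxcl12. The size of the outside medians in wild type FLT3 cells is therefore uncertain. Without the set 2 wild type array with Cxcl12 the outside median turned to 0.04, with 8 of 10 positive, and the inside median to -0.24. Without that of set 1 they were -1.01 and 0.39. The median of the outside probes over both kinds of cell was -0.40 in set 1 and -0.84 in set 2. It was -0.36 without the N78 array without Cxcl12, and -0.35 without the set 2 wild type array with Cxcl12, so each of these arrays moved it by more than 1.5 times.

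**Figure D3:**
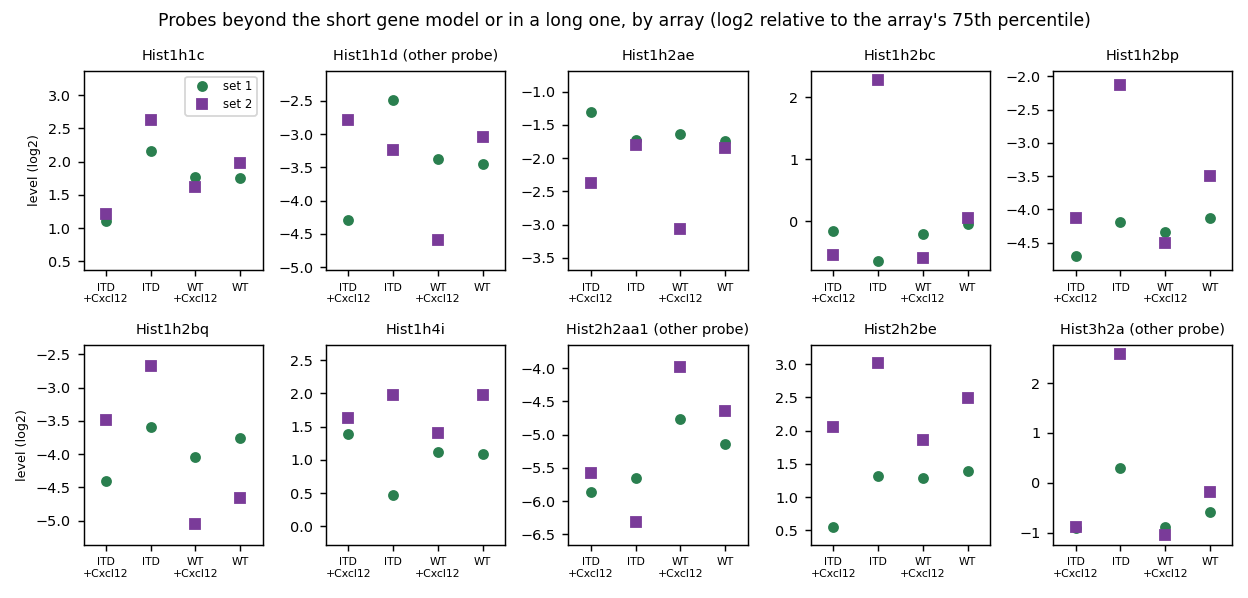
Levels of the 10 outside probes on each array (log2 relative to the array's 75th percentile), circles for set 1 and squares for set 2, each panel with its own axis. From left to right each panel gives FLT3/ITD with Cxcl12, FLT3/ITD, wild type FLT3 with Cxcl12 and wild type FLT3. The FLT3/ITD array of set 2 without Cxcl12 is the highest square for Hist1h2bc (2.28) and the further Hist3h2a probe (2.58).

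At the other end, the 5 highest members with Cxcl12 were all read by inside probes. Hist1h1t had 0.93 (-0.29 to 2.16, adjusted p = 0.472), resting on 1 set 1 array above background. Hist2h2aa1 had 0.32 (-0.12 to 0.77, adjusted p = 0.498), Hist2h4 0.13 (-0.26 to 0.52, adjusted p = 0.785), Hist3h2a 0.10 and Hist1h4f 0.10 (-0.26 to 0.46, adjusted p = 0.820). The intervals of the 6 H4 genes ran from -0.50 to 0.52.

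By class, all 8 H2B genes were lower with Cxcl12 (median -0.41), also under the other 4 scalings, though the median was -0.25 with normexp background correction. It was -0.14 (7 of 8 lower) without the N78 array without Cxcl12 and -0.17 (6 of 8) without the set 1 wild type array without Cxcl12, and 5 of 8 were lower without the set 1 wild type array with Cxcl12. The H2B genes read by outside probes had -0.93 to -0.58, and those read by inside probes only -0.24 to -0.14. All 8 were lower in FLT3/ITD cells (median -0.65), but 5 of 8 in wild type FLT3 cells (-0.17). Histone class and place of the probe are therefore mixed in this median. Averaged over both kinds of cell, lower too were 4 of 6 H1 genes (median -0.12), while 7 of 10 H2A genes (median 0.05) and 4 of 6 H4 genes (median 0.04) were higher. These counts turned without single arrays, to 1 of 10 H2A genes (median -0.07) and 1 of 6 H4 genes (-0.09) without the set 2 wild type array with Cxcl12, and to 1 of 6 H4 genes (-0.04) without the N51 array with Cxcl12. The H2A count also became 5 of 10 with normexp background correction, and the H4 count 3 of 6 with quantile scaling. The H3 genes had a median of -0.13. Among the inside H2B probes, those of Hist1h2bm, Hist1h2bk and Hist3h2bb-ps share runs of 26 to 52 bases. Hist1h2bm had 0.77 and 3.22 in FLT3/ITD cells with Cxcl12, against 0.85 and 3.91 without (set 1, set 2), and in wild type FLT3 cells 0.61 and 3.97 with Cxcl12, against 1.05 and 3.32 without. In set 2 the array with Cxcl12 was lower in FLT3/ITD and higher in wild type cells, while in set 1 it was lower in both. The difference between the responses was therefore 0.36 in set 1 and -1.35 in set 2, and 0.22 and -1.34 for Hist1h2bk, whose probe differs from it at 2 of 60 bases.

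**Figure D4:**
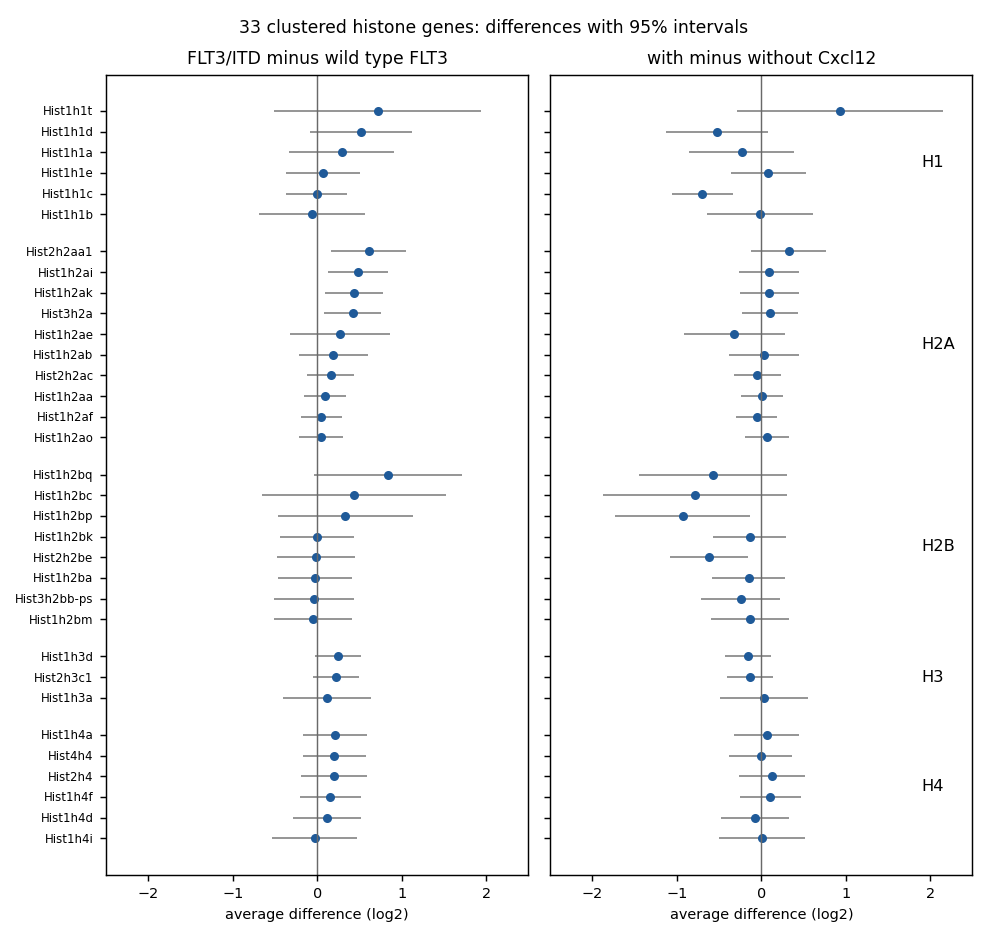
Average differences (log2) of the 33 clustered histone genes by class, FLT3/ITD over wild type FLT3 on the left and with over without Cxcl12 on the right. Lines are 95% intervals from limma. None passed at an adjusted p under 0.05, and the lowest points on the right are H2B genes and Hist1h1c (-0.70).

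Taken by kind of cell, 0 of 33 members passed with Cxcl12 in FLT3/ITD cells and 0 of all genes did (0%, limma), at 4 of 33 (12.1%) and 1469 genes (10.6%) with an unadjusted p under 0.05. The median there was -0.11 against 0.06 over all genes, with 22 of 33 negative. In both sets 16 (48.5%) were negative and 3 (9.09%) positive, against 24.8% and 34.4% of all genes. The median was 0.00 without the N78 array with Cxcl12 and -0.04 without the N51 array without it, with 17 of 33 negative in each case, and -0.21 without the N51 array with Cxcl12. In wild type FLT3 cells 0 of 33 passed, where 9 of all genes (0.0649%) did, and 0 of 33 had an unadjusted p under 0.05 (989 genes, 7.13%). The median was 0.00 against -0.01 over all genes, but -0.17 in set 1 and 0.34 in set 2, and 8 to 24 of 33 were positive when 1 array was left out. In the test of the difference between the responses, 0 of 33 and 0 of all genes passed (0%, limma), with 1 member (3.03%) and 243 genes (1.75%) at an unadjusted p under 0.05. Comparisons that use the same arrays share their errors, so these counts are not independent.

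The genes that make, bind or use histone mRNA and protein were nearly all without a call too. Of all genes, 6.16% passed in the average FLT3/ITD comparison and 0.382% in the average Cxcl12 comparison. Among 11 measured replication-independent histone genes, whose mRNAs carry poly(A) tails, H2az2, which encodes an H2A.Z form, fell with FLT3/ITD by 0.50 (SE 0.12, adjusted p = 0.0491), and none rose. It had 5.90 and 5.62 in FLT3/ITD cells with Cxcl12 and 5.85 and 5.73 without, against 6.17 and 6.05 in wild type FLT3 cells with Cxcl12 and 6.67 and 6.21 without. Every FLT3/ITD array lay below every wild type array. Its relative H2az1 differed by 0.03 (SE 0.11, adjusted p = 0.887).

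Of 24 genes of histone mRNA 3′ processing, decay and transcription, 0 passed in either average comparison (limma). An unadjusted p under 0.05 was found for 4 of 24 with FLT3/ITD and 5 of 24 with Cxcl12, against 26.2% and 15.1% of all genes. Slbp, the stem-loop binding protein, had -0.27 with FLT3/ITD (SE 0.14, adjusted p = 0.263) and 0.25 with Cxcl12 (SE 0.14, adjusted p = 0.446). Npat had -0.42 with FLT3/ITD (SE 0.18, adjusted p = 0.193) and -0.02 with Cxcl12. Cyclin E activates NPAT through CDK2, and its genes had the larger differences with Cxcl12. Ccne1 had 4.83 and 4.70 in FLT3/ITD cells with Cxcl12, against 3.27 and 3.84 without, and 4.39 and 4.37 in wild type FLT3 cells with Cxcl12, against 3.64 and 2.74 without. All 4 arrays with Cxcl12 lay above all 4 without, with an average of 1.20 (SE 0.22, adjusted p = 0.0607), and Ccne2 had 0.86 (SE 0.19, adjusted p = 0.0913). Neither passed the test.

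Of 25 histone chaperone and chromatin assembly genes, 1 rose with Cxcl12 and 1 with FLT3/ITD, where 0.382% and 6.16% of all genes passed in either direction. Nap1l1, a chaperone of H2A and H2B, had 3.92 and 2.82 in FLT3/ITD cells with Cxcl12, against 2.61 and 1.69 without, and 3.52 and 2.69 in wild type FLT3 cells with Cxcl12, against 2.80 and 1.55 without. It rose by 1.07 (SE 0.15, adjusted p = 0.0304), higher with Cxcl12 in all 4 pairs of arrays. Ipo4, an importin that carries histones H3 and H4 into the nucleus, rose with FLT3/ITD by 0.77 (SE 0.18, adjusted p = 0.0422).

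None of 35 S phase and DNA replication genes passed in either average comparison (limma). Their medians were -0.03 for FLT3/ITD and 0.18 for Cxcl12, against -0.01 and 0.02 over all genes. An unadjusted p under 0.05 was found for 1 and 4 of them, against 26.2% and 15.1% of all genes. Pcna, the sliding clamp of DNA polymerases, had 0.26 with FLT3/ITD (SE 0.18, adjusted p = 0.411) and 0.40 with Cxcl12 (SE 0.18, adjusted p = 0.342). None of 9 histone modifier genes passed, with medians of -0.12 and 0.02, and 1 and 0 had an unadjusted p under 0.05. Without the slide as a block none of the 3 calls of these lists was made (adjusted p of 0.937 to 1), and over 17 alternatives H2az2 passed in 3, Ipo4 in 8 and Nap1l1 in 8.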

How the data were processed

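The 8 Ba/F3 RNA samples were hybridised to 1-colour (Cy3) Agilent arrays of 60-base probes. The deposited intensity values were, per the file headers, corrected for background by Agilent Feature Extraction (9.5.1.1 in set 1, 10.7.3.1 in set 2) and not scaled between arrays. The authors' deposited tables, of scaled intensity (set 1) and of a ratio to a constant (set 2), lay within 0.01 log2 of array-scaled values for 99.8 to 99.9% of probes and served as an alternative. Control spots and outlier flags were left out, spots of a probe averaged, and log2 values taken relative to each array's 75th percentile.

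All 8 arrays and 13866 genes (the brightest probe that passed the filter for each) were fitted with limma 3.58.1 (R 4.3.3) by 4 group means with the slide as block and an intensity trend, with 3 residual degrees of freedom. The block rests on the slide in the headers, and the deviations of arrays on 1 slide from the group means correlated at 0.730 to 0.877. The threshold was an adjusted p under 0.05 (Benjamini-Hochberg over all genes). On simulated data of 13819 genes with 100 changed genes per fold, the average FLT3/ITD comparison recovered 75% of 2-fold and 99% of 4-fold changes, the average Cxcl12 comparison 87% and 98%, and the comparison of responses 5% and 70%. Of 2-fold changes, FLT3/ITD without and with Cxcl12 recovered 32% and 37%. Cxcl12 in FLT3/ITD and wild type FLT3 cells recovered 45% and 40%. The simulated noise was independent from gene to gene, which that of the arrays may not be.

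The members and the related gene lists were chosen with earlier results of these data known. Named members are the 5 highest and 5 lowest in each average comparison and the brightest of each class, and others are marked as chosen after their values were seen. Hist1h2bk, Hist1h2ab, Hist1h2ae, Hist1h2af, Hist1h3a and Hist1h4d were likewise named for their probes. Symbols and mm9 probe coordinates are those of the set 2 files, since 2 probes carry a histone symbol in the set 1 files alone and were not used. Current symbols and gene lengths are from RefSeq (GRCm38).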

Additional observations from a re-analysis of the deposited data

Results flagged for a closer look

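Hist1h2ak, an H2A gene, was the 1 member of 33 (3.03%) in which the Cxcl12 difference had opposite signs in the 2 kinds of cell in both sets, against 1070 of 13866 genes (7.72%). It was -0.15 in set 1 and -0.06 in set 2 in FLT3/ITD cells, and 0.02 and 0.57 in wild type FLT3 cells. The difference between the responses was -0.40 (SE 0.31, adjusted p = 1 in limma), which did not pass the test.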

How the results depend on the processing

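Over 17 alternatives and 7 comparisons, 116 of 119 counts of clustered histone genes past the test stayed at 0, and 3 became 1. For the average FLT3/ITD difference, 1 member (Hist2h2aa1, adjusted p = 0.0484) passed with the array median as scale, where 9.57% of all genes passed, and 1 (Hist1h2bc, 1.22, adjusted p = 0.0197) without the N51 array without Cxcl12, where 6.89% did. For the FLT3/ITD difference with Cxcl12, 1 (Hist1h1t) passed without the N78 array with Cxcl12, where 1.34% did, against a set 1 wild type array below the background limit. Leaving out 1 array gave 0 to 1 members in these 2 comparisons and 0 in the other 5.

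Without the slide as a block, 0 members and 0 genes passed in any comparison (limma), and 0 to 1 members had an unadjusted p under 0.05. Over all alternatives the genes called ranged from 0 to 1327 for the average FLT3/ITD difference (854 as reported), 0 to 206 for the average Cxcl12 difference (53), 0 to 211 and 0 to 178 for FLT3/ITD with and without Cxcl12 (118 and 72), 0 to 50 and 0 to 13 for Cxcl12 in FLT3/ITD and wild type FLT3 cells (0 and 9), and 0 to 20 for the comparison of responses (0). Scaling by the array median moved the median FLT3/ITD difference of all genes to 0.12, and that of the members to 0.32, or 0.20 relative to all genes.

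With 2 arrays a group the precision is low: half-widths of 95% intervals exceeded 1 log2 unit for several dim probes, and 4 of the 37 genes were not measured. The outside probes were grouped, and their medians recomputed without single arrays, after the data had been seen.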
